A study of Mus musculus with 2 samples.

Results

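Members of the KLF and NR4A families of transcription factors were examined in GR-1+ cells of mouse tumors, at single-cell resolution. The genes were chosen by name, Klf2, Klf4, Klf6, Klf13, Nr4a1, Nr4a2 and Nr4a3, and all 7 were found among the 28692 genes listed in both count matrices. Tumors were grown in the mammary fat pad of young adult female BALB/c mice from the parental 4T1 line (4T1p), a triple-negative breast carcinoma that resists immune checkpoint therapy, and a polyclonal derivative exposed to the mutagen MNNG that responds to it (4T1m). Both groups of mice received anti-PD1, and the GR-1+ cells were taken from digested tumors with magnetic beads after the treatment. GR-1 antibody binds Ly6G and Ly6C, so the selection takes up granulocytic and monocytic cells. Each tumor type gave 1 library of 10x Genomics 3′ v3 chemistry, so there are no replicates, no difference was tested, and every 95% interval below covers counting error only. How many mice entered a library is not given in the sources used here.

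Klf proteins bind CACCC and GC boxes in promoters through zinc fingers like those of the fly protein Krüppel, which gave the family its name. Klf2 keeps T cells, monocytes and endothelium in a quiescent state, and Klf4 takes part in the differentiation of monocytes and in the polarization of macrophages. Klf6 supports inflammatory gene expression in macrophages, and Klf13 regulates chemokine genes in lymphocytes. Nr4a1, Nr4a2 and Nr4a3 are orphan nuclear receptors that are induced within minutes to hours of a stimulus, and Nr4a1 is needed for the Ly6C-low monocytes that patrol vessels. Several of these genes, like Fos, Jun and Egr1, belong to the immediate-early response, which is also raised by enzymatic digestion of a tissue. 

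In the GRCm38 build (GENCODE vM21) Klf2 (ENSMUSG00000055148) lies on the plus strand at chr8:72319033-72321656 and Klf4 (ENSMUSG00000003032) on the minus strand at chr4:55527143-55532466. Klf6 (ENSMUSG00000000078) lies at chr13:5861482-5870394, and Klf13 (ENSMUSG00000052040) at chr7:63886351-63938915, where it overlaps Gm27252 and E030018B13Rik. Nr4a1 (ENSMUSG00000023034) was found at chr15:101254269-101274795, Nr4a2 (ENSMUSG00000026826) at chr2:57106830-57124003 and Nr4a3 (ENSMUSG00000028341) at chr4:48045153-48086447.

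The 250 bases before the RefSeq start site (GRCm38.p6) are printed for the 3 NR4A genes and for Klf2 and Klf4, the KLF members that differed most between the libraries. They run 5′ to 3′ on the strand of the gene, and capitals mark TGACG on either strand (CGTCA where it lies on the opposite strand), which is the core of the cAMP response element bound by the CREB family. The RefSeq starts of Nr4a1, Nr4a3 and Klf2 lie inside the spans that GENCODE annotates. The window of Nr4a1 thus lies wholly inside the annotated gene. Those of Nr4a3 and Klf2 run into it, past the annotated starts at 48045153 and 72319033. The windows are chr15:101266596-101266845 for Nr4a1, chr2:57124004-57124253 for Nr4a2, chr4:48045055-48045304 for Nr4a3, chr8:72318812-72319061 for Klf2 and chr4:55532476-55532725 for Klf4.
Nr4a1: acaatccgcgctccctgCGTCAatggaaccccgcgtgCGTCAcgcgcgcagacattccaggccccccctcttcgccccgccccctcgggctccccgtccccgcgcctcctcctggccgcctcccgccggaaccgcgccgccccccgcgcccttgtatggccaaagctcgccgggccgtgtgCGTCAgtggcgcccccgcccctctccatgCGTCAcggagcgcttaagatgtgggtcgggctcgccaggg
Nr4a2: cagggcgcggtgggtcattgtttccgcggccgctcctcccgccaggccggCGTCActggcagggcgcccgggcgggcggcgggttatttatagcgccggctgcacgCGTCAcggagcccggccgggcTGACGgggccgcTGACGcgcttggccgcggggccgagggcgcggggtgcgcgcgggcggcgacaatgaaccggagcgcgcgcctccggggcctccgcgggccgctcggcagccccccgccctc
Nr4a3: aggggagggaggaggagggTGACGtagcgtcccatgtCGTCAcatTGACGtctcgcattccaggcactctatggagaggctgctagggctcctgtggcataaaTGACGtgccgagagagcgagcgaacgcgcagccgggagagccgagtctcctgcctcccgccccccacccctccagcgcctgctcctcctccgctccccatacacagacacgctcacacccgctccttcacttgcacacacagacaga
Klf2: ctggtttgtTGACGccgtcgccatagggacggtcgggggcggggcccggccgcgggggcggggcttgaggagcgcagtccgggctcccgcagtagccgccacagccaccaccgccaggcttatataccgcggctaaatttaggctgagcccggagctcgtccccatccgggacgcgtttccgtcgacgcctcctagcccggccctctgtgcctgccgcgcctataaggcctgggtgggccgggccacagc
Klf4: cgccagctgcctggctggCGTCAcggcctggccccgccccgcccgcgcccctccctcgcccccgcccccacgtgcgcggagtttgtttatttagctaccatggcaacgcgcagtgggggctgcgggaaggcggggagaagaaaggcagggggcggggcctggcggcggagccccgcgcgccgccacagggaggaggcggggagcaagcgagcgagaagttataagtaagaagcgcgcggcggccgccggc

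Each NR4A promoter held 4 copies of TGACG, whereas Klf2, Klf4 and Klf13 held 1 and Klf6 held 0. Among 32851 mouse promoter windows of the same length, 17.8% held the motif and 0.688% held it 3 times or more. This motif was chosen after the promoters were seen. The full element TGACGTCA occurred in 1.55% of the windows and the NR4A monomer site AAAGGTCA in 1.34%, and neither was found in a member. The KLF core CACCC, searched on both strands, is common, with 52.0% of all windows holding it; Nr4a3 held 3 copies, and Klf2, Klf13 and Nr4a2 held 1 each. A match is a description of the letters and not a site of binding.

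Of 4390 barcodes, 3220 had 250 to 5000 detected genes, at most 27000 unique molecular identifiers (UMIs, counted RNA molecules) and at most 1 in 8 UMIs from mitochondrial genes: 1128 of the library labelled 4T1p and 2092 of that labelled 4T1m. No barcode was shared. The libraries held 9021132 and 14840190 UMIs, and the median over all barcodes was 2066 UMIs in the library labelled 4T1p and 2763 UMIs in that labelled 4T1m. The methods of the study give the same pair of medians with the library names exchanged. Which of the sources has the names right cannot be told here, so every direction between the libraries rests on the labels of the files and would turn if the libraries were exchanged. Clustering without the members and related genes gave 11 clusters. Clusters 0, 3, 5 and 7 (1536 barcodes) were monocytic-like from markers such as Csf1r and Apoe, and clusters 1, 2, 6 and 8 (1273 barcodes) were granulocytic-like from markers such as S100a8 and Cxcr2. Cluster 4 (345 barcodes, led by Thbs1, Vcan and Pf4) held all 10 monocytic markers but none among its 10 leading genes, which include the platelet marker Pf4, and it was kept apart and unnamed. Clusters 0, 2 and 7 also had no marker of their lineage among their 10 leading genes, but none of another class either. The mean share of monocytic marker detection, relative to the highest cluster, was 0.71 in cluster 4, above 0.55 in cluster 0 and 0.61 in cluster 7. Under log-normalization, 20 principal components or resolution 0.4, the cluster with Thbs1 among its leading genes was monocytic-like. With the members kept in clustering it was unnamed. Of the GR-1 antigens, Ly6g reached 724 CPM (UMIs of a gene scaled to 1e6 UMIs of the group) in cluster 8 but 45.9 CPM or less in the other granulocytic-like clusters, and Ly6c2 was at 26.2 CPM in monocytic-like barcodes. B and T cell-like clusters held 34 and 32 barcodes.

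Summed over each lineage, Klf4 and Nr4a2 were higher in the monocytic one and Klf2 in the granulocytic one. Klf4 stood at 476 CPM in monocytic-like against 18.2 CPM in granulocytic-like barcodes of the library labelled 4T1p, and at 180 against 20.3 CPM in that labelled 4T1m. The log2 ratio was 4.71 (95% interval 3.98 to 5.55) and 3.15 (2.78 to 3.54). Among the clusters other than the lymphocyte ones, Nr4a2 lay mostly in monocytic-like barcodes and cluster 4, with 281 and 283 UMIs in monocytic-like barcodes of the 2 libraries and 7 and 3 UMIs in granulocytic-like ones. Whether free RNA in droplets gave the granulocytic-like values was not tested. The 10 monocytic markers, which also named the lineages, served as a comparison. In granulocytic-like barcodes they stood at 2.11% to 7.04% of their monocytic-like level in the library labelled 4T1p. In that labelled 4T1m the range was 2.48% to 7.04%. Klf4 in granulocytic-like barcodes, at 3.83% and 11.3% of its monocytic level, was within that range in the library labelled 4T1p and above it in the other. Its granulocytic-like level was alike in both libraries, whereas its monocytic-like level, which leaves out cluster 4, was lower in that labelled 4T1m. Nr4a2, on few UMIs, was at 12.2% in the library labelled 4T1p, above the range, and at 1.42% in the other, below it. 

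Klf2 had the opposite order, with 750 CPM in monocytic-like against 1153 CPM in granulocytic-like barcodes of the library labelled 4T1p, and 160 against 721 CPM in that labelled 4T1m. The log2 ratio of monocytic-like over granulocytic-like barcodes was -0.62 (-0.73 to -0.51) and -2.17 (-2.29 to -2.04). Both lineages expressed the gene, and the gap was wider in the library labelled 4T1m. All genes shifted in this comparison, with a median log2 ratio of 1.18 over 8906 genes, of which 53.3% were more than 2-fold higher and 12.4% more than 2-fold lower in monocytic-like barcodes (32.1% and 29.97% when scaled by the median of ratios). Against that median Klf4 (4.03 over both libraries) and Nr4a2 (4.76) lay above it and Klf2 (-0.85) below it. The other members had ratios of 1.06 for Nr4a1, 0.41 for Nr4a3, 0.29 for Klf6 and 0.25 for Klf13. All 4 lay below the median of all genes, so subtracting that median (the median of ratios) makes them negative. Of the 7 members, 3 were more than 2-fold higher, a share near the background.

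**Figure D1:**
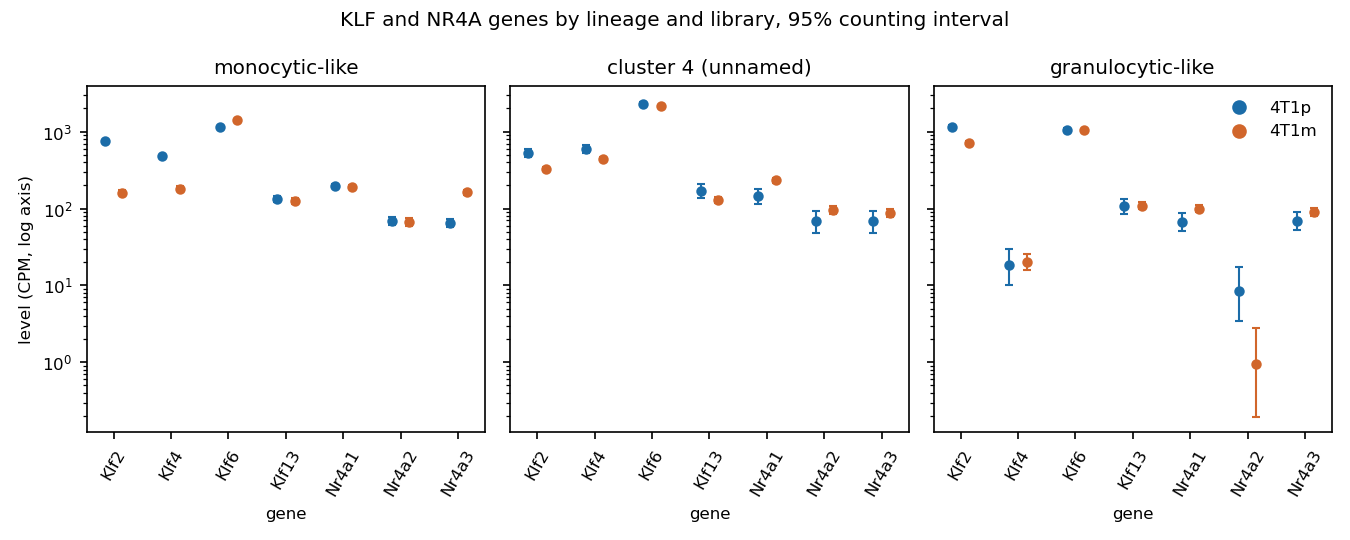
Level of each gene (vertical axis, CPM, log axis) in monocytic-like, cluster 4 and granulocytic-like barcodes of the 2 libraries (points, bars: 95% counting interval). Klf4 and Nr4a2 are low in the granulocytic-like panel, and Klf2 and Klf4 separate the libraries in the monocytic-like panel.

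Within the monocytic-like clusters the members were uneven. Klf4 was highest in cluster 5, led by Ccl5, Ifnb1 and Ifit2, at 662 CPM in the library labelled 4T1p, followed by cluster 3 (led by Ccl8 and complement C1q genes) at 325 CPM, cluster 0 at 235 CPM and the cycling cluster 7 at 120 CPM, and the interval of each stayed clear of the next. Cluster 4 had 595 CPM, and its interval (534 to 662) overlapped that of cluster 5 (629 to 697). In the library labelled 4T1m cluster 4 led with 439 CPM, cluster 5 followed with 210 CPM, and clusters 0, 3 and 7 lay between 79.2 and 149 CPM with overlapping neighbors. The 24 T cell-like barcodes there had 177 CPM (117 to 258) on 27 UMIs, overlapping cluster 5. Cluster 4 was thus ahead in the library labelled 4T1m, while the order of clusters 4 and 5 was not resolved in the other.

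Klf6 was highest in cluster 4 in both libraries, at 2318 and 2154 CPM, ahead of cluster 5 at 1514 and 1763 CPM. Cluster 2, a granulocytic-like cluster led by Ccdc126, Ciart and Ero1l, had intervals that overlapped those of cluster 5, at 1706 and 1664 CPM. The immature granulocytic-like cluster 8, led by Camp, Ngp and Ltf, had the lowest values of its lineage, with 546 and 644 CPM. Klf13 varied least, between 61.5 and 174 CPM over clusters 0 to 8 in the library labelled 4T1p and between 58.9 and 154 CPM in that labelled 4T1m, and most neighbors in the order overlapped. 

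The NR4A genes had their own places. Nr4a1 was highest in cluster 5 among the clusters of at least 50 barcodes in the library labelled 4T1p (267 CPM, interval 246 to 289), while clusters 4 and 5 were level in that labelled 4T1m (234 and 233 CPM). Nr4a2 followed the same places at 97.7 and 87.0 CPM in cluster 5 and 68.1 and 94.8 CPM in cluster 4. In the few T cell-like barcodes it stood at 143 CPM (61.6 to 281) and 164 CPM (106 to 242), on 8 and 25 UMIs, the highest values of any cluster. Nr4a3 had a granulocytic-like place as well: in cluster 1, led by Mirt1, Irg1 and Hdc, it reached 140 and 188 CPM, beside 102 and 206 CPM in cluster 5. The other granulocytic-like clusters had at most 54.7 CPM of it.

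Klf2 was present in every granulocytic-like cluster and had its lowest value in cluster 8, clear of all others only in the library labelled 4T1m. Cluster 2 had 1689 CPM in the library labelled 4T1p and 991 CPM in that labelled 4T1m. Cluster 6, led by Slc2a3, Steap4 and Prok2, had 976 and 1002 CPM, and cluster 8 had 807 and 352 CPM. The interval of cluster 6 in the library labelled 4T1p (783 to 1203) overlapped that of cluster 8. In the library labelled 4T1p the monocytic-like cluster 5 had 933 CPM (893 to 975), not below cluster 8 (692 to 935). Clusters 3, 0 and 7 had 731, 395 and 331 CPM there. In the library labelled 4T1m the monocytic-like clusters had 92.9 to 176 CPM, below every granulocytic-like cluster. In the T cell-like barcodes, only 8 and 24, Klf2 stood at 2016 and 952 CPM.

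**Figure D2:**
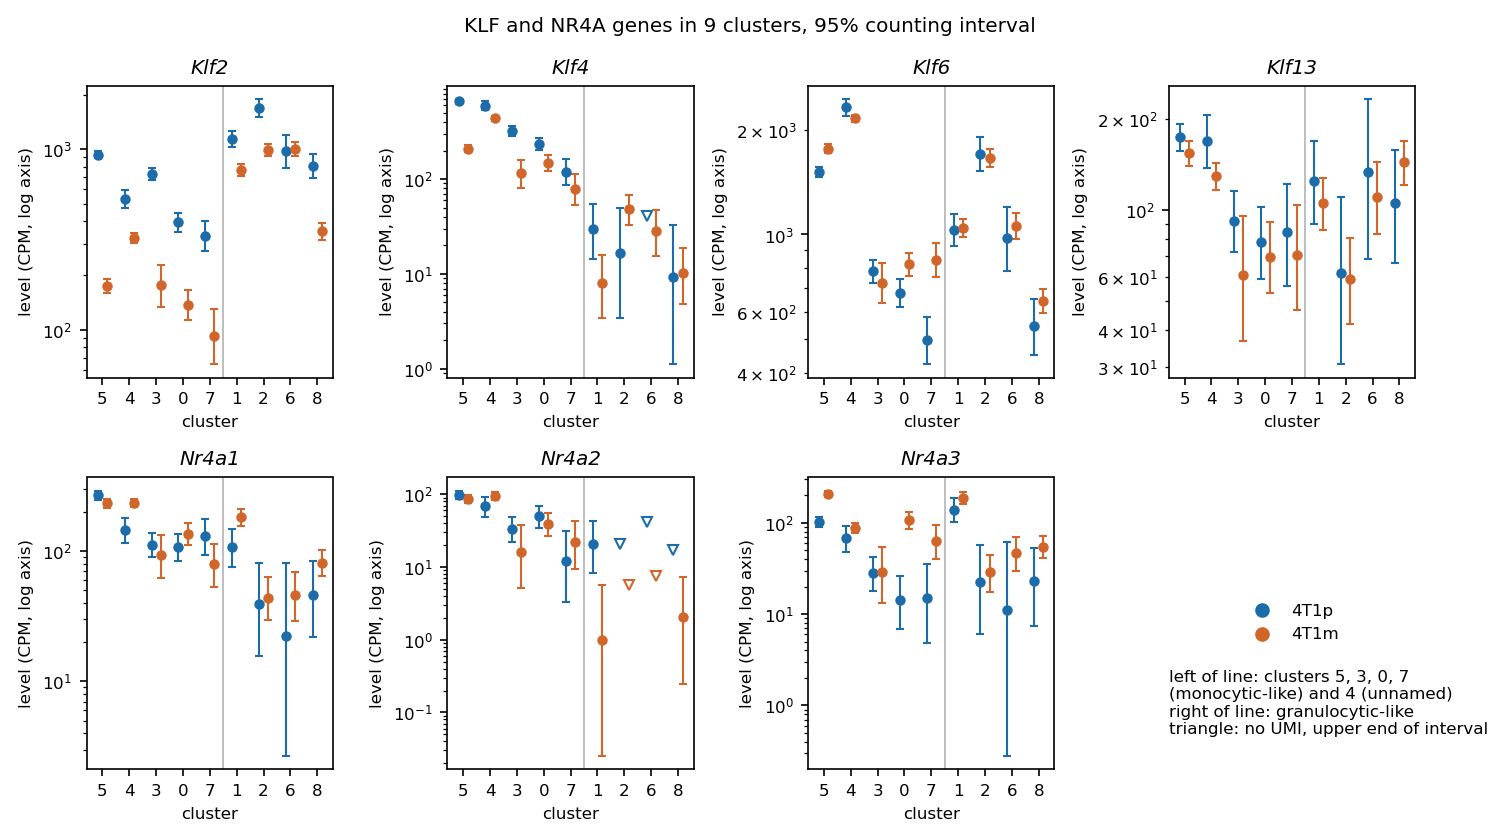
Level of each gene (vertical axis, CPM, log axis) in clusters 0 to 8 of the 2 libraries, with 95% counting intervals; triangles mark groups with no UMI at the upper end of their interval. Klf2 of the library labelled 4T1m lies below that labelled 4T1p in 8 of 9 clusters with intervals of the ratio below 0, cluster 6 being the exception, and Klf4 is lower in the granulocytic-like clusters, right of the vertical line, than in the clusters left of it.

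To compare tumors that resist and respond to anti-PD1, the libraries were set side by side within each lineage. Klf2 was 4.68-fold lower in monocytic-like barcodes of the library labelled 4T1m, with 678 UMIs of 4227443 against 3036 of 4048742 (log2 ratio -2.23, -2.35 to -2.10). It ranked 7 from the lowest of 8333 genes. Klf4 was 2.64-fold lower, with 762 against 1927 UMIs (-1.40, -1.52 to -1.28), and ranked 33 from the lowest. Nr4a3 was 2.49-fold higher, at 162 against 65.0 CPM and with 684 against 263 UMIs (1.32, 1.11 to 1.53). Among the 8333 genes with at least 50 UMIs, 1.27% were more than 2-fold lower and 7.2% more than 2-fold higher (2.23% and 4.48% when scaled by the median of ratios), and the median of all genes was 0.17.

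The remaining 4 members stayed within 2-fold in monocytic-like barcodes. Klf6 was at 1429 against 1139 CPM (0.33, 0.27 to 0.38). Klf13 was at 124 against 134 CPM (-0.11, -0.28 to 0.07), Nr4a1 at 191 against 197 CPM (-0.04, -0.19 to 0.10) and Nr4a2 at 66.9 against 69.4 CPM (-0.05, -0.30 to 0.19). Neither family moved in 1 direction: for Klf13, Nr4a1 and Nr4a2 the interval of the ratio held 0, and the sign of all 3 changed with the processing.

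These ratios depended on where cluster 4 was counted. With it among the monocytic-like barcodes, Klf2 stood at -1.66, Klf4 at -0.77 and Nr4a3 at 1.01, so Klf4 was no longer beyond 2-fold. At most 5% mitochondrial UMIs gave -1.66 for Klf2 and -1.13 for Klf4. Cluster by cluster, Klf2 was lower by more than 2-fold in all 4 monocytic-like clusters, with log2 ratios of -2.42 in cluster 5, -2.05 in cluster 3, -1.83 in cluster 7 and -1.53 in cluster 0, beside -0.71 in cluster 4. For lower ratios, the share of genes beyond 2-fold was 1.37% in cluster 5, 2.41% in cluster 3, 2.89% in cluster 7, 1.67% in cluster 0 and 2.07% in cluster 4. Klf4 was lower by more than 2-fold in cluster 5 (-1.66, -1.80 to -1.52) and cluster 3 (-1.49, -2.04 to -0.99). It stood at -0.66 in cluster 0, -0.44 in cluster 4 and -0.60 in cluster 7, where the interval held 0 (-1.35 to 0.12). Cluster 5 gave 578 of the 762 and 1457 of the 1927 monocytic-like Klf4 UMIs, so the summed ratio of Klf4 rests mostly on that cluster.

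Nr4a3 rested on few clusters. It was beyond 2-fold higher in cluster 0, with 85 against 10 UMIs (2.89, 1.95 to 4.01), and in cluster 5, with 567 against 225 UMIs (1.01, 0.79 to 1.24), where 7.18% and 8.22% of genes were. In cluster 7 it had 23 against 5 UMIs, under the minimum, and in cluster 3 the levels were 28.8 and 28.2 CPM. Cluster 4 had 88.4 against 68.1 CPM (0.38, -0.11 to 0.90).

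Over all granulocytic-like barcodes no member passed 2-fold, where 7.17% of 4489 genes were higher and 3.21% lower by that much. Klf2 was at 721 against 1153 CPM (-0.68, -0.79 to -0.57), lower in the library labelled 4T1m as in the monocytic-like barcodes but by less. By cluster it stood at -0.57 in cluster 1, -0.77 in cluster 2, 0.04 in cluster 6 and -1.20 in cluster 8, where 2.6% of genes were more than 2-fold lower. Nr4a3 was more than 2-fold higher in cluster 8, as were 15.7% of genes there, but on 54 against 5 UMIs and with an interval that held 0 (1.26, -0.06 to 2.94). Nr4a1 was at 99.8 against 66.8 CPM (0.58, 0.16 to 1.02). Klf6 and Klf13 had ratios of 0.01 and 0.02, Klf4 of 0.16 (-0.67 to 1.08) on 64 and 15 UMIs and Nr4a3 of 0.38 (-0.03 to 0.82). Nr4a2, with 10 UMIs in all, did not reach the minimum.

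**Figure D3:**
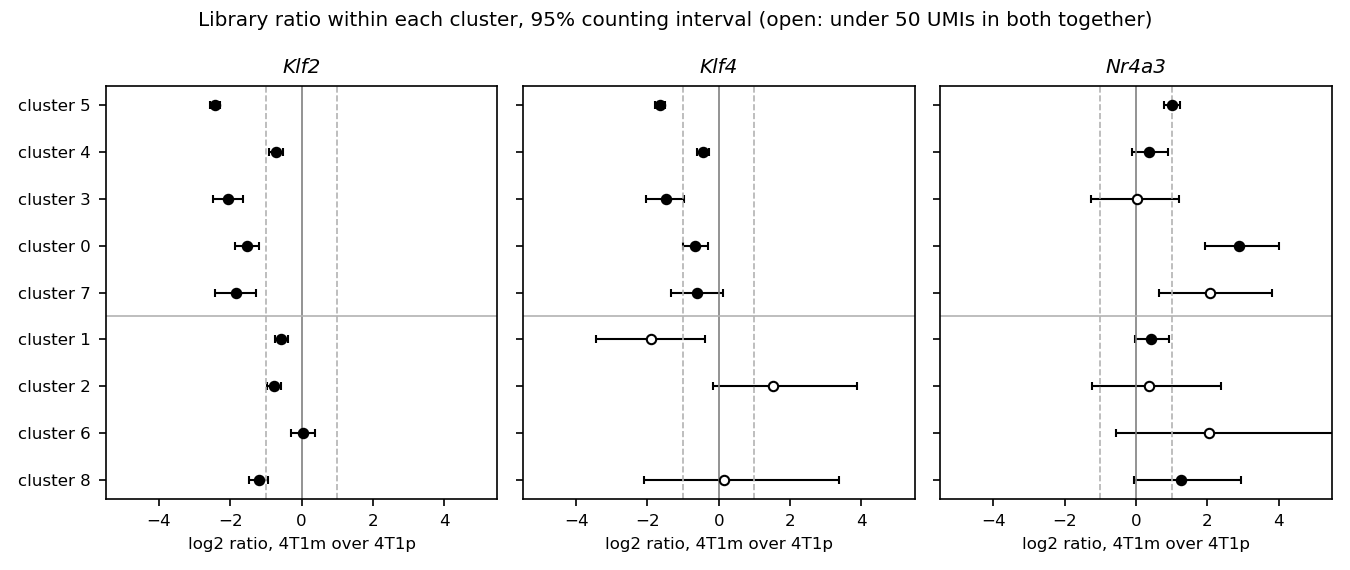
Log2 ratio of the library labelled 4T1m over that labelled 4T1p (horizontal axis) for 3 genes in clusters 0 to 8, with 95% counting intervals; dashed lines mark 2-fold and open points rest on fewer than 50 UMIs. Klf2 lies left of the 2-fold line in the 4 monocytic-like clusters and within 2-fold in clusters 1, 2, 4 and 6, and Klf4 of cluster 6 has no point because 1 library had no UMI.

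The deepest barcodes show how the difference was spread over cells. In cluster 5 the median was 16315.5 UMIs per barcode in the library labelled 4T1p and 14014.5 in that labelled 4T1m, and each barcode was thinned to 5000 UMIs. Klf2 was found in 55.8% of 129 barcodes (46.8% to 64.5%) against 27.6% of 174 barcodes (21.1% to 34.9%), and its mean was 4.53 against 0.908 UMIs per barcode (log2 ratio -2.32). The gene was uneven, since the 10% of barcodes with most Klf2 held 55.0% and 75.9% of its UMIs, with up to 51 and 21 in 1 barcode. Klf4 was found in 78.3% (70.2% to 85.1%) against 47.7% (40.1% to 55.4%), with means of 3.52 and 0.977 UMIs. At equal depth, fewer barcodes of the library labelled 4T1m held either gene.

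Klf6 at that depth was found in 97.7% and 99.4% of the cluster 5 barcodes, with 7.91 and 8.73 UMIs per barcode. Nr4a3 was found in 31.8% (23.9% to 40.6%) against 46.0% (38.4% to 53.7%), and Nr4a1 in 58.1% against 56.3%. The mean of Nr4a3 was 0.535 against 0.908 UMIs (log2 ratio 0.76), within 2-fold, unlike the 1.01 of the summed UMIs. Nr4a2 was found in 24.0% against 23.0%, with means of 0.535 and 0.328 UMIs (-0.71, beside -0.17 in the summed UMIs). Klf4 was higher in barcodes with Klf2 in both libraries, with means of 4.25 against 2.596 UMIs and of 1.40 against 0.817 UMIs. Read the other way, Klf2 averaged 5.44 UMIs in the 101 barcodes with Klf4 and 1.29 in the 28 without in the library labelled 4T1p, and 1.00 and 0.824 in that labelled 4T1m, where the interval of the ratio held 0. Klf2 was lower in barcodes with Nr4a3 in both libraries, with means of 2.90 against 5.30 UMIs and of 0.638 against 1.14 UMIs. It was also lower with Nr4a2, at log2 ratios of -0.743 in the library labelled 4T1p and -0.884 in that labelled 4T1m. With Nr4a1 it was higher, at 0.416 and 0.498, and each of these intervals stayed clear of 0. With the roles exchanged, the interval held 0 for Nr4a1 in both libraries and for Nr4a2 in the library labelled 4T1p. Nr4a3 by Klf2 gave 0.278 against 0.860 UMIs and 0.75 against 0.968 UMIs, and the latter ratio had an interval that held 0. Barcodes of 1 library are not replicates, and these means are a description.

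In cluster 4 at 5000 UMIs Klf2 was found in 60.9% of 46 barcodes (45.4% to 74.9%) against 44.8% of 232 (38.3% to 51.5%), and Klf4 in 69.6% against 62.1%. Nr4a1 had the reverse order, in 30.4% (17.7% to 45.8%) against 48.3% (41.7% to 54.9%). Klf6 was found in nearly every barcode, 97.8% and 99.6%.

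The immediate-early genes were lower in the library labelled 4T1m as well. Of 14 listed genes 13 reached the minimum in monocytic-like barcodes, and 8 of them were more than 2-fold lower (Fos, Jun, Egr1, Ier2, Ier3, Btg2, Zfp36 and Dusp1) and 0 higher, with a median log2 ratio of -1.29 beside 0.17 for all genes. The shares over all genes compared were 1.27% lower and 7.2% higher by that much. Fos, a subunit of AP-1, was at 700 against 1731 CPM (-1.31, -1.37 to -1.24). Ier2 had the lowest ratio of the list with 312 against 948 CPM (-1.60, -1.69 to -1.51), and Dusp1, a phosphatase that switches off MAP kinases, was at 393 against 1013 CPM (-1.37). Fosb (-0.17), Atf3 (-0.19) and Jund (-0.33) were the nearest to 0.

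Summed over the list, immediate-early genes made 14879 CPM of monocytic-like barcodes in the library labelled 4T1p and 7549 CPM in that labelled 4T1m. In cluster 5 the sums were 18761 and 8616 CPM, and 9 of 13 genes were more than 2-fold lower, beside 1.37% of all genes. In granulocytic-like barcodes the sums were 17064 and 12180 CPM, with none of 13 beyond 2-fold and a median of -0.30. There 10.4% of all genes were beyond 2-fold in either direction. The median of the list was thus below 0 in both lineages, as was the ratio of Klf2, and Klf4 was below 0 in monocytic-like barcodes but at 0.16 in granulocytic-like ones. In contrast, Nr4a1, Nr4a2, Nr4a3 and Klf6, which belong to the early response in many cells, had ratios between -0.05 and 1.32 in monocytic-like barcodes. The part of the immediate-early list in the Klf2 and Klf4 difference was not tested.

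**Figure D4:**
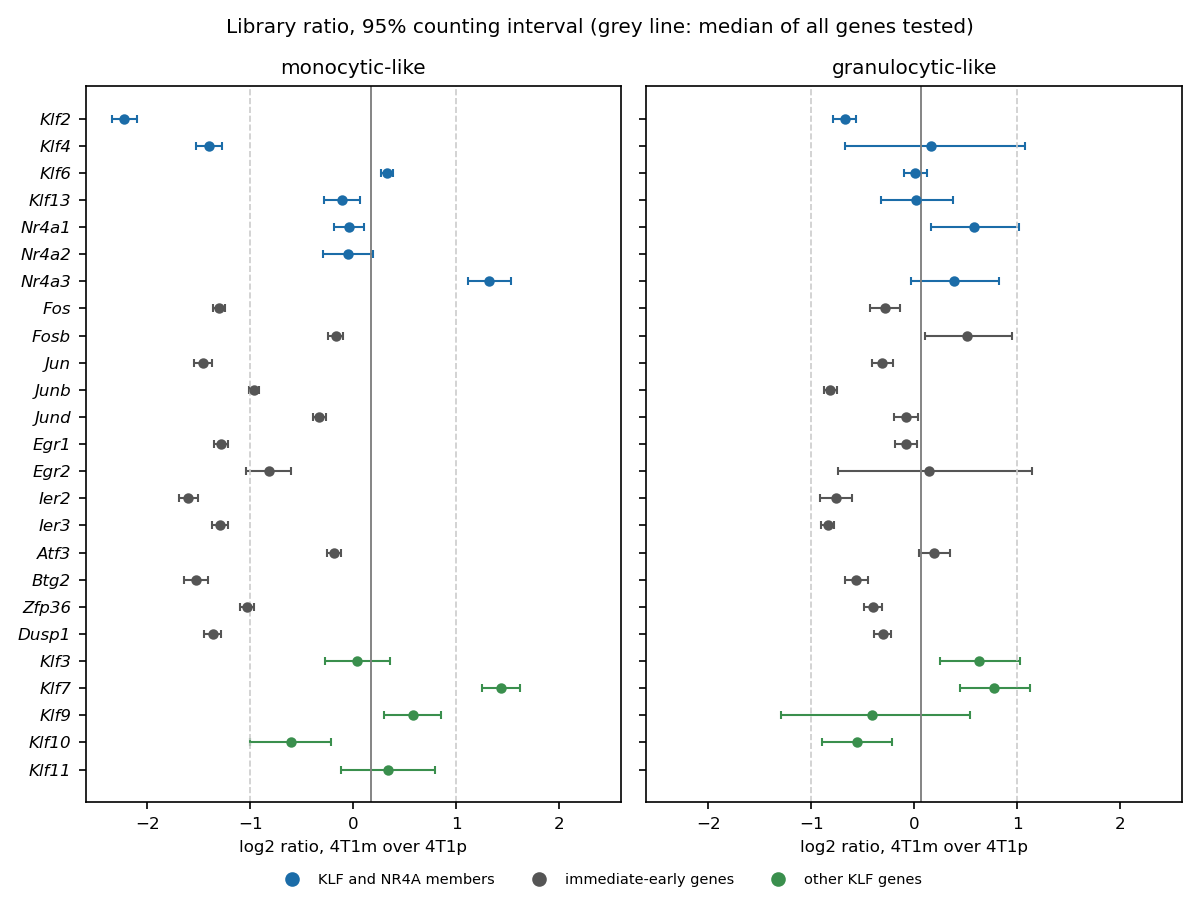
Log2 ratio of the library labelled 4T1m over that labelled 4T1p (horizontal axis) with 95% counting intervals for the members, immediate-early genes and other KLF genes with at least 50 UMIs; the grey line is the median of all genes and dashed lines mark 2-fold. In the monocytic-like panel Klf2 lies below every immediate-early gene, and Nr4a3 and Klf7 lie beyond 2-fold on the right.

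Few of the other KLF genes could be compared. Of 13 listed, 5 reached the minimum in monocytic-like barcodes, of which Klf7 was more than 2-fold higher at 215 against 79.5 CPM (1.43, 1.25 to 1.62) and 0 were lower by that much. Of all genes compared there, 7.2% were higher and 1.27% lower by that much. Klf10, induced by TGF-beta, was at 22.0 against 33.6 CPM (-0.61, -1.01 to -0.22), and Klf9 at 66.2 against 44.5 CPM (0.58, 0.30 to 0.85). Of the related Sp genes 4 of 4 reached the minimum and Sp3 was more than 2-fold higher, at 51.1 against 24.5 CPM (1.06, 0.71 to 1.42). The median ratio was 0.33 for the other KLF genes and 0.32 for the Sp genes, beside 0.17 for all genes.

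Genes linked to Nr4a1 and Klf2 in monocytes were in part too low to compare. Of 10 genes of Ly6c-low monocytes, 8 reached the minimum and 0 were beyond 2-fold in monocytic-like barcodes, with a median of 0.11, where 8.47% of all genes were beyond 2-fold in either direction. Cx3cr1, the fractalkine receptor of these cells, was at 277 against 270 CPM (0.04, -0.08 to 0.16). Of 5 genes known to follow Klf2, among them S1pr1, only Itgb7 reached the minimum, at 13.0 against 16.0 CPM (-0.30, -0.85 to 0.24), so that they were too low to be read in this lineage.

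Genes with the most similar pattern were taken across the 16 groups of cluster and library with at least 50 barcodes, among 6417 genes, as the Pearson correlation of log2(CPM + 10). These groups share 2 libraries and their depths, and genes are not independent. For Klf2 they were Dusp1 (0.96), Btg2 (0.95), Ier3 (0.91), Ifnar2 (0.89) and Zfp36 (0.89), of which 4 are in the immediate-early list. For Klf4 they included Tsc22d1 (0.96), Plxnb2, Rgs1 and Baiap2. For Nr4a2 they were Src (0.96), Rcan1, an inhibitor of calcineurin (0.95), Myo1c, Baiap2 and Ext1. The closest genes of the other members were less similar, with Mdm2 (0.91) and Mafg (0.91) for Klf6, Lrp10 (0.82) for Klf13, Lrp10 (0.85) and Ifih1 (0.84) for Nr4a1 and Aff1 (0.86) for Nr4a3. Among the members Klf4 and Nr4a2 were closest (0.90), then Nr4a1 and Nr4a2 (0.78), and Klf2 lay between -0.38 and 0.32 with the other 6.

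Other measures differed between the libraries in the same barcodes. In monocytic-like barcodes the median was 1452 and 1791 UMIs, the median mitochondrial share was 3.09% and 4.91%, and a UMI of the leukocyte gene Ptprc was found in 34.5% and 48.2%. The 10 monocytic markers, all detected, summed to 36968 and 25346 CPM. Erythroid markers (3 of 3 detected) summed to 14.1 and 632 CPM and fibroblast markers (3 of 3 detected) to 0.741 and 43.3 CPM. In cluster 5, the monocytic-like cluster where Klf2 differed most, erythroid markers were at 5.46 and 12.7 CPM and fibroblast markers at 0.909 and 1.82 CPM. In cluster 0, the one where Nr4a3 differed most, fibroblast markers were at 1.43 and 220 CPM. Of 40 barcodes that held stromal markers, 37 lay in cluster 0. Without the 40 the monocytic-like ratio of Nr4a3 was 1.28 and that of Klf2 -2.21. Cluster 0 held only 10 of 263 and 85 of 684 monocytic-like Nr4a3 UMIs, so the lineage ratio says little about that cluster. The ratio within cluster 0 was not recomputed without these barcodes.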

How the data were processed

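Filtered matrices of 2 libraries were analysed. Their values are the counts of UMIs that the authors obtained with Cell Ranger on mm10 (version 3.1.0 in the file header) and deposited with no normalization. Members and gene lists were chosen with earlier results of these data known, so no list is independent support.

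Barcodes were kept by the limits given with the libraries. No filter on Ptprc or doublets was applied, and both served as alternatives (doublets ranked with Scrublet, scanpy 1.11.5). Total UMIs left out the ribosomal RNA genes Gm42418 and AY036118. Normalization for clustering used SCTransform (Seurat 5.3.0, R 4.3.3), and 22 of 3000 variable genes (5 members, related KLF, Sp and immediate-early genes) were left out before 11 principal components and Louvain clustering at resolution 0.8. Apart from the B and T cell-like clusters, named from their own markers, clusters took the lineage with the higher mean share of marker detection. A cluster stayed unnamed where another class had more markers among its 10 leading genes. That rule left out cluster 4, on Pf4 alone. Clusters with too few detected markers, or with low depth and no own marker among those genes, also stayed unnamed.

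A level is the sum of a gene's UMIs in a group in CPM, and its interval is the exact Poisson interval of that sum. Ratios between groups are log2 of the CPM quotient, and their bounds follow from the exact binomial interval of 1 group's part in both sums. Genes with at least 50 UMIs in both groups together were compared, and beyond 2-fold means a log2 ratio past 1. To compare shares of barcodes, each was thinned to 5000 UMIs and shallower ones were left out (13 and 24 in cluster 5, 23 and 44 in cluster 4). Named genes were the members, the lists, the 6 leading genes of a cluster, and for each member the 5 most correlated genes with at least 200 UMIs. The ratio and its interval were tested on simulated Poisson counts of whole libraries. That setting matches the assumption of the interval and leaves out the spread between barcodes. Promoters are from RefSeq (GRCm38.p6), matched by symbol for 7 of 7 members, and gene places from GENCODE vM21. With 1 library per group, the difference between tumors cannot be told apart from that between libraries. The alternatives are given in the closing section. 58 symbols occur more than once, none of them a member. Some genes that the naming rule covers are not reported here.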

Additional observations from a re-analysis of the deposited data

Results flagged for a closer look

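Klf6 differed in sign between clusters in the same contrast of libraries. The log2 ratio of the library labelled 4T1m over that labelled 4T1p was 0.27 in cluster 0, 0.22 in cluster 5 and 0.77 in the cycling cluster 7, each with a counting interval above 0, and -0.11 in cluster 4 with an interval below 0. All 4 values lay within 2-fold. The median of all genes was 0.11 in cluster 0, 0.20 in cluster 5, 0.04 in cluster 7 and 0.03 in cluster 4. Klf6 in cluster 5 thus lay near the median of its cluster, at rank 3614 from the lowest of 6995 genes.

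Nr4a1 also differed in sign in the summed UMIs, while at equal depth its ratio in cluster 5 lay near 0. Its ratio was 0.77 in the granulocytic-like cluster 1 and 0.69 in cluster 4, against -0.20 in cluster 5. With cluster 5 barcodes thinned to equal depth, its mean was 1.19 UMIs in the library labelled 4T1p and 1.20 in that labelled 4T1m. That log2 ratio was 0.009, beside 0.71 in cluster 4 thinned in the same way. No interval was computed for the thinned ratios, so whether 0.009 departs from the summed -0.20 is not resolved. Cluster 1 was not thinned to that depth. The differences between clusters were not tested, since each library is 1 sample, and the intervals cover counting error only.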

How the results depend on the processing

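Ratios by lineage and counts were recomputed under the alternatives that apply to each, at most 16 for a ratio. The ratios by single cluster were not, apart from the means of clusters 4 and 5 after thinning to 5000 UMIs. Cluster 4 counted as monocytic-like, cluster 0 left out, stromal barcodes left out and the thinning to 5000 UMIs were chosen after the data were seen. Klf2 between the libraries in monocytic-like barcodes kept its sign in 16 of 16 (-2.39 to -1.63), as did Klf4 (-1.57 to -0.77) and Nr4a3 (0.96 to 1.57), and Klf2 in granulocytic-like barcodes (-0.87 to -0.57). Nr4a1 in monocytic-like barcodes ranged from -0.23 to 0.56 and kept its sign in 9 of 16.

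Of the members in monocytic-like barcodes, 2 were lower and 1 higher by more than 2-fold. The count lower was 1, with Klf4 lost, under log-normalization, 20 principal components, resolution 0.4, lineage from marker UMIs and cluster 4 counted as monocytic-like, and the count higher was 0 under log-normalization, 20 principal components and lineage from marker UMIs, with Nr4a3 at 0.96, 0.97 and 0.99. In granulocytic-like barcodes 1 member was lower with no minimum, against 0. The share of genes higher and lower in monocytic-like barcodes was 4.48% and 2.23% with the median of ratios, 13.7% and 3.58% as a mean over barcodes and 20.1% and 11.2% with no minimum, and the share lower was 1.93% after thinning to 1000 UMIs. With no minimum it was 29.4% and 14.4% in granulocytic-like barcodes.

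The median of ratios subtracts the median log2 ratio of all genes compared. For monocytic-like over granulocytic-like barcodes, it gave -0.85 for Klf6, -0.89 for Klf13, -0.088 for Nr4a1 and -0.73 for Nr4a3. The mean over barcodes gave -0.73 for Klf6, -0.42 for Klf13 and -0.38 for Nr4a3, and thinning to 1000 UMIs gave -0.37 for Klf6 and -0.35 for Nr4a3. Under these 3, at most 5% mitochondrial UMIs, and a total without mitochondrial, ribosomal and top genes, 1 member (Klf2) was more than 2-fold lower, against 0. Of all genes, 32.1% were higher and 29.97% lower with the median of ratios, 18.5% lower as a mean over barcodes and 23.7% lower after thinning. The cause of these changes was not tested, beyond the barcodes of cluster 4 that an alternative adds.

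No paired analysis was possible because each group is 1 library. For the same reason no replicate was left out. The alternative on shared barcodes was not run, since no barcode was shared. Depth limits Nr4a2 in granulocytic-like barcodes and Klf4 by granulocytic-like cluster, where both rest on few UMIs.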
